A study of Bos taurus with 6 samples.

Results

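The RNA of 10 genes of inflammation was followed in bovine fetal fibroblasts (bEFs), the connective tissue cells grown from cattle fetuses. The genes were IL6, LIF, CXCL8, CCL2, CXCL12, CSF1, SAA3, CHI3L1, PTX3 and NFKBIA, 10 of the 17663 genes in the table. They were chosen by name from FPKM values and counts of the same FT and WT libraries that had already been looked at, so their levels and fold changes are given here as a description, with no test. The FT group held cells from 3 fetuses carrying an exogenous fat-1 gene, a worm gene for an enzyme that turns n-6 polyunsaturated fatty acids into n-3 forms. The WT group held cells from 3 wild-type fetuses of Luxi cattle. All fetuses were 50 to 60 days old, and each gave 1 poly(A) RNA library, named FT_1 to FT_3 and WT_1 to WT_3. The breed of the FT fetuses and the promoter of the transgene are not given in the sources used here. The sex chromosomes and the transgene itself were not analysed here.

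By library, counts summed to 63366834 (FT_1), 48167642 (FT_2) and 54204446 (FT_3) in the FT group. In the WT group they summed to 69777641 (WT_1), 51310741 (WT_2) and 54271927 (WT_3). Levels are given as FPKM, fragments counted per gene, divided by the length of the gene and the library total. Fold changes are log2 ratios of FT over WT from a fit of edgeR to the counts, with a standard error (SE). A gene was called where its log2 fold change was above 1 or below -1 and edgeR's quasi-likelihood test gave an adjusted p (Benjamini-Hochberg) below 0.05. Of 13482 genes tested, 1131 (8.39%) were called higher in FT and 1019 (7.56%) lower, together 15.9%. Higher calls were 52.6% of all calls, against 39.3% when libraries were scaled by their totals only and 29.9% with limma on log2(FPKM + 1). The median log2 fold change of the genes tested was 0.03 in the main scaling and -0.12 with totals only.

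FT_1 stood apart from FT_2 and FT_3. The biological coefficient of variation, the spread of a gene's level between a pair of libraries beyond counting noise, was 8.23% between FT_2 and FT_3 and 9.99% to 13.4% between WT libraries. It was 56.9% between FT_1 and FT_2 and 57.6% between FT_1 and FT_3. FT_1 lay over 2-fold above both other FT libraries for 9.24% of the genes tested and over 2-fold below them for 9.63%. In each of the other 5 libraries these shares were between 0.564% and 1.65%. Of the 10 genes, 8 were over 2-fold above in FT_1 and 1, CXCL12, was over 2-fold below. For this reason most fold changes and medians are given with all 6 libraries and again without FT_1. Without FT_1, 13765 genes were tested, of which 1482 (10.8%) were called higher and 1614 (11.7%) lower, together 22.5%. The number of lower calls thus moved from 1019 to 1614. Higher calls numbered 748 without WT_1 and 728 without WT_2.

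**Figure D1:**
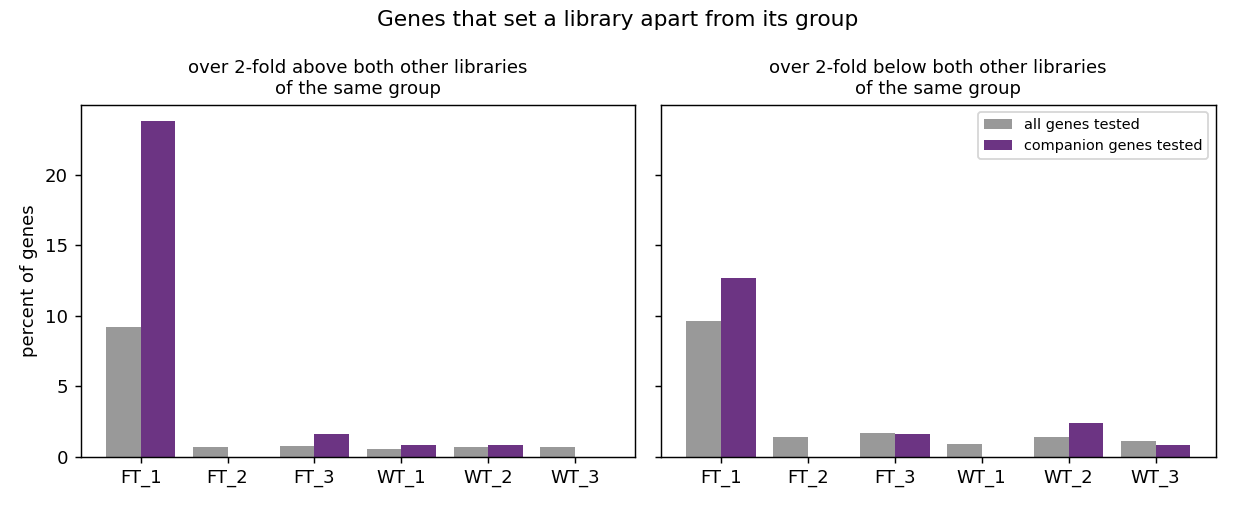
Percent of genes whose level in a library, named on the horizontal axis, was over 2-fold above (left) or over 2-fold below (right) that of both other libraries of its group. Grey bars are the 13482 genes tested and purple bars the 126 companion genes tested. The bars of FT_1 reach 9.24% and 23.8% on the left and 9.63% and 12.7% on the right, and no other bar passes 2.38%.

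Markers of fibroblasts were abundant in every library. All 12 fibroblast markers, led by the collagen-binding protein DCN or the filament protein VIM, were above 1 FPKM in each of the 6 libraries. Their summed level was 7286 FPKM in FT_1 and 17508 to 18779 FPKM in the other 5 libraries. The markers did not all follow the sum, since POSTN (212 FPKM against 34.0 to 39.6), PDGFRA (218 against 87.0 to 166) and THY1 (413 against 330 to 368.5) were highest in FT_1. The sum of the epithelial markers was highest in FT_1. The 10 epithelial markers summed to 457 FPKM in FT_1 but 16.4 in FT_2 and 15.9 in FT_3, and to 10.4, 8.05 and 14.2 in the WT libraries. In FT_1, 8 of the 10 were above 1 FPKM, led by the keratins KRT5 (172 FPKM), KRT14 (128 FPKM) and KRT8 (84.1 FPKM). KRT5 was at 2.57 FPKM in FT_2, 1.63 in FT_3 and 0 in all 3 WT libraries, while CLDN7 was at 0 in FT_1. In bulk RNA, fewer cells of a type and less RNA per cell cannot be told apart.

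Markers of immune cells were low. The 9 macrophage and myeloid markers in the table summed to 5.84 to 6.77 FPKM in FT and 10.98 to 12.8 FPKM in WT, and CD14 was the most abundant in 5 of the 6 libraries. Single markers differed in direction, as CD163 was at 0.18 FPKM or less in FT and 2.69 to 3.14 FPKM in WT, whereas FCER1G was at 2.24 to 2.48 FPKM in FT and 1.3 to 1.62 FPKM in WT. LYZ was at 0.08 FPKM or less in all 6 libraries. The 5 lymphocyte markers in the table summed to 3.45 to 9.64 FPKM, almost all of it CD247, while CD3E, CD3D and MS4A1 were at 0 in every FT library and at most 0.05 FPKM in WT. The 8 endothelial markers in the table summed to 0.51 to 1.56 FPKM. The 5 hepatocyte markers in the table summed to 8.26 to 22.8 FPKM in FT and 116 to 138 FPKM in WT, where TTR made up most of the sum and ALB was at 0.03 FPKM or less. FT_1 thus had a high epithelial sum and a fibroblast sum low through the most abundant markers. Most of the inflammatory genes described next were also highest in FT_1. The part of these markers in those levels was not tested.

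**Figure D2:**
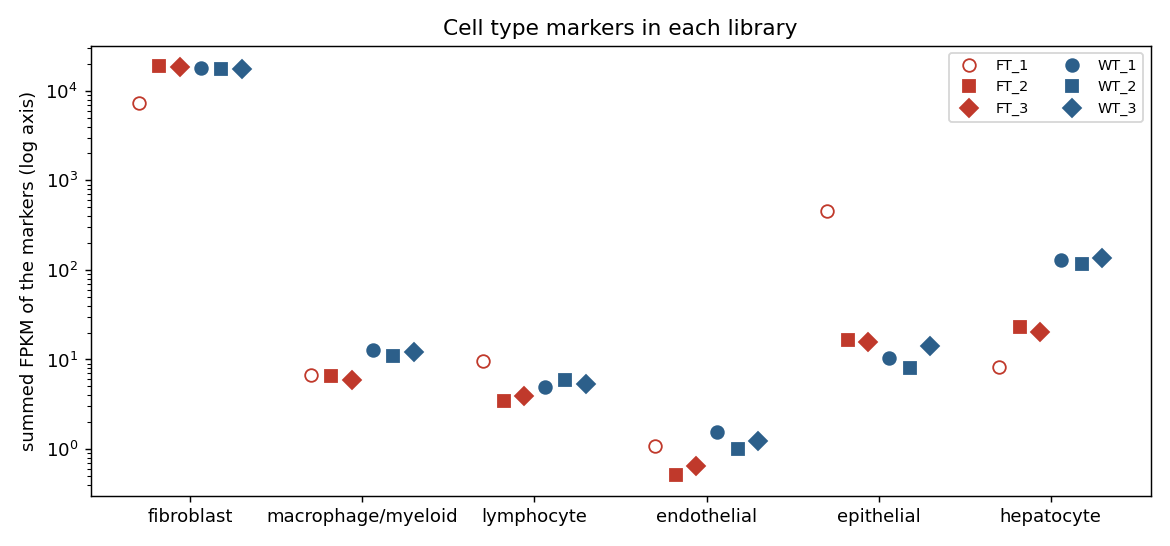
Summed FPKM of the markers of 6 cell types in each library, on a log axis, with FT libraries in red and WT libraries in blue. FT_1, the open circle, has the lowest fibroblast sum (7286 FPKM) and the highest epithelial sum (457 FPKM).

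Fibroblasts are not immune cells, but they answer tissue damage and microbial products with secreted signals. Receptors for TNF, interleukin-1 and microbial molecules free the transcription factor NF-kB from its inhibitor NFKBIA, and NF-kB then drives genes for cytokines, chemokines and matrix enzymes, as well as its own inhibitors. IL-6 and its relatives act through the receptor chain gp130 (IL6ST) on JAK kinases and STAT3. Chemokines direct the movement of white blood cells, and acute phase proteins are secreted proteins whose amount rises in inflammation.

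The dominant pattern among the 10 genes was a split within the FT group. In FPKM, 6 of them (CCL2, CHI3L1, CXCL8, IL6, NFKBIA and SAA3) were higher in FT_1 than in any WT library and lower in FT_2 and FT_3 than in any WT library. This order was found for 6.83% of all genes tested. On log2 CPM (counts per 1000000 counts of the library) after TMM scaling it also held for 6 of the 10, with PTX3 in place of CCL2, and for 5.76% of all genes tested. The levels of the 10 genes summed to 1157 FPKM in FT_1 but 162 in FT_2 and 151 in FT_3, against 217, 205 and 229 FPKM in WT_1, WT_2 and WT_3. The 10 genes took 0.189% of the counts in FT_1, 0.0629% in FT_2, 0.059% in FT_3 and 0.075% to 0.0802% in the WT libraries. The FT and WT levels did not overlap for 1 of the 10 genes, CXCL12, where 58.7% of all genes tested did not overlap. Because the genes were chosen on these values, nothing is read from how these counts compare with the shares over all genes.

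**Figure D3:**
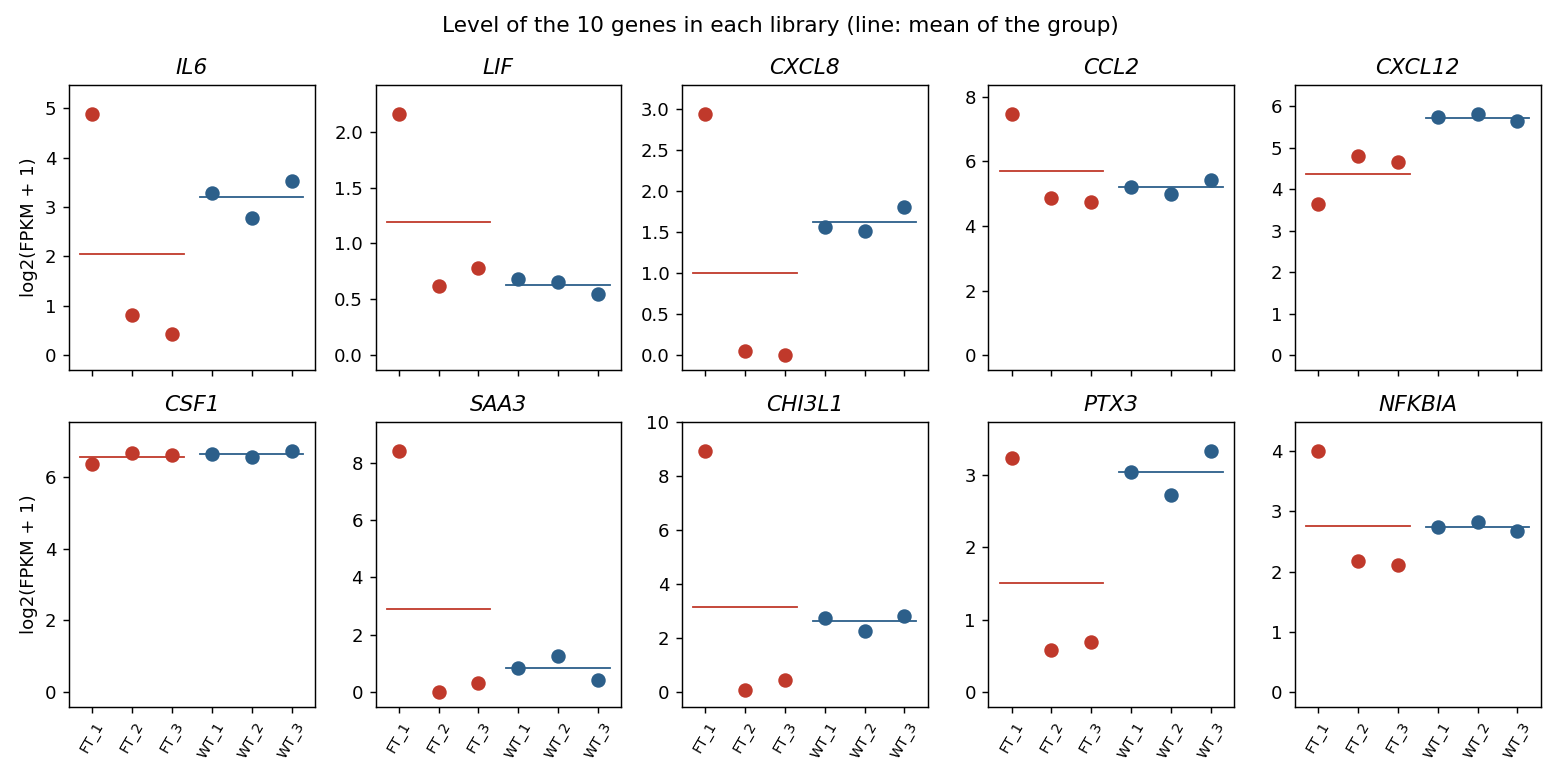
Level of each of the 10 genes as log2(FPKM + 1) in the FT libraries (red) and WT libraries (blue), with a line at the mean of each group. FT_1 is the highest library for 7 genes, second for PTX3 and the lowest for CXCL12 and CSF1.

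IL6 encodes interleukin-6, the cytokine after which the IL-6 family is named. Its gene (ENSBTAG00000014921) lies on chromosome 4 at 31454749 to 31459131. Coordinates are those of the deposited table. Their genome build is not settled, since the submitters' notes name only a mouse build and the identifiers are bovine. IL6 was at 28.7 FPKM in FT_1 but 0.77 in FT_2 and 0.35 in FT_3, and at 8.79, 5.86 and 10.6 FPKM in WT_1, WT_2 and WT_3. FT_1 was thus above and the other FT libraries far below the narrow WT range, so the groups overlapped. The group means were 9.93 ± 16.2 FPKM in FT and 8.41 ± 2.38 FPKM in WT (SD, n = 3 each), and FT_1 was 37.2-fold above FT_2. The log2 fold change of IL6 was 0.38 (SE 1.47) with all libraries and -3.72 (SE 0.352) without FT_1. With limma, which averages log values, it was -1.15 on log2(FPKM + 1) and -1.88 on log2(FPKM + 0.1) with all libraries. Its sign thus depended on the scale of the average.

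LIF, leukemia inhibitory factor, is a second ligand that signals through gp130. Its gene (ENSBTAG00000007424, chromosome 17, 69262954 to 69269513) was read at a low level, 3.47 FPKM in FT_1 but 0.54 in FT_2 and 0.72 in FT_3, against 0.6, 0.57 and 0.46 FPKM in the WT libraries. Only FT_1 was clearly outside the range of the other libraries. LIF had a log2 fold change of 1.68 (SE 0.736) with all libraries and 0.39 (SE 0.299) without FT_1. Unlike IL6, it therefore did not lie below WT in FT_2 and FT_3 beyond the spread between libraries.

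CSF1 encodes the growth factor of macrophages and their precursors. Its gene (ENSBTAG00000000283, chromosome 3, 33488957 to 33509479) gave 81.9 FPKM in FT_1, with 101 in FT_2 and 96.0 in FT_3, and 98.6, 93.9 and 105 FPKM in the WT libraries. CSF1 was the most even of the 10 genes, with means of 93.1 ± 10.1 FPKM in FT and 99.1 ± 5.54 FPKM in WT (SD, n = 3 each). Its fold change on the log2 scale was 0.07 (SE 0.117), 0.16 (SE 0.0681) without FT_1 and -0.08 with libraries scaled by totals only, so no direction can be given for it.

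CXCL8, interleukin-8, attracts neutrophils. Its gene (ENSBTAG00000019716, chromosome 6, 88810418 to 88814572) was at 6.67 FPKM in FT_1 but 0.04 in FT_2 and 0 in FT_3, and at 1.95, 1.85 and 2.5 FPKM in the WT libraries. These levels rest on 814 counts in FT_1, 4 in FT_2 and none in FT_3, against 183 to 261 counts in WT. A count of 0 in FT_3 allows up to 0.0553 CPM, where the WT libraries had 3.57 to 4.79 CPM. Such limits cover counting error only. The log2 fold change of CXCL8 was 0.22 (SE 1.87) with all libraries and -6.44 (SE 0.576) without FT_1. With all libraries, limma gave -0.63 on log2(FPKM + 1) and -2.26 on log2(FPKM + 0.1).

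CCL2 attracts monocytes. Its gene (ENSBTAG00000037811, chromosome 19, 15902777 to 15905368) was at 176 FPKM in FT_1 but 27.9 in FT_2 and 25.8 in FT_3, and at 35.5, 31.0 and 41.5 FPKM in the WT libraries. FT_1 was 6.29-fold above FT_2, while FT_2 and FT_3 lay just under the WT range. For CCL2 the log2 fold change was 1.23 (SE 0.772) with all libraries and -0.25 (SE 0.116) without FT_1, so the higher FT mean came from 1 library.

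CXCL12, a chemokine made by stromal cells that holds blood cell precursors in their niche, was below WT in FT_1 as well as in FT_2 and FT_3. Its gene (ENSBTAG00000005077, chromosome 28, 45022356 to 45051627) was at 11.4 FPKM in FT_1 but 26.85 in FT_2 and 24.0 in FT_3, and at 52.1, 55.3 and 48.6 FPKM in the WT libraries. All FT libraries were below all WT libraries, with means of 20.8 ± 8.23 FPKM and 52.0 ± 3.33 FPKM (SD, n = 3 each). For CXCL12 the log2 fold change was -1.16 (SE 0.322) with all libraries and -0.86 (SE 0.078) without FT_1. CXCL12 was the only one of the 10 genes below WT in every FT library, and FT_1 was the lowest of them.

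SAA3 encodes a serum amyloid A, an acute phase protein made outside the liver as well as in it. Its gene (ENSBTAG00000049589, chromosome 29, 26414390 to 26418145) was at 339 FPKM in FT_1 but 0 in FT_2 and 0.24 in FT_3, and at 0.77, 1.38 and 0.35 FPKM in the WT libraries. The counts were 12624 in FT_1 but 0 in FT_2 and 8 in FT_3, against 12 to 42 in WT. The count of 0 in FT_2 allows up to 0.0623 CPM, where FT_1 had 199 CPM. Nearly all SAA3 RNA was thus found in 1 library, and the log2 fold change was 7.19 (SE 3.03) with it and -2.50 (SE 1.05) without it. With limma, SAA3 had a log2 fold change of 2.07 on log2(FPKM + 1) and 1.44 on log2(FPKM + 0.1) with all libraries. A near copy on the same chromosome, M-SAA3, had 536 counts (14.3 FPKM) in FT_1 and 0 in the other 5 libraries. How reads shared by such copies were counted is not given in the sources used here, so the division between SAA3 and M-SAA3 is uncertain.

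CHI3L1 encodes a chitinase-like glycoprotein secreted by activated fibroblasts and macrophages. Its gene (ENSBTAG00000018223, chromosome 16, 968434 to 978542) was at 487 FPKM in FT_1 but 0.06 in FT_2 and 0.35 in FT_3, and at 5.76, 3.79 and 6.1 FPKM in the WT libraries. It had 56411 counts in FT_1 but 6 in FT_2 and 35 in FT_3, against 354 to 730 in WT. The FT libraries of CHI3L1 therefore lay on both sides of WT, far above and far below. Its log2 fold change was 5.09 (SE 2.78) with all libraries and -4.41 (SE 0.447) without FT_1. With limma it was 0.53 on log2(FPKM + 1) and -0.67 on log2(FPKM + 0.1), so its sign also turned with the constant added to the FPKM.

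PTX3, long pentraxin, is a secreted protein that binds microbes and is made at sites of inflammation. Its gene (ENSBTAG00000009012, chromosome 1, 110158198 to 110164262) was at 8.4 FPKM in FT_1 but 0.49 in FT_2 and 0.62 in FT_3, and at 7.25, 5.6 and 9.07 FPKM in the WT libraries. In FPKM, FT_1 lay within the WT range and only FT_2 and FT_3 were outside it, while on log2 CPM after TMM scaling FT_1 was above it. The log2 fold change of PTX3 was -1.06 (SE 1.08) with all libraries and -3.52 (SE 0.248) without FT_1.

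NFKBIA encodes the inhibitor that holds NF-kB in the cytoplasm, and is itself a target of NF-kB. Its gene (ENSBTAG00000016683, chromosome 21, 45639133 to 45643131) was at 15.1 FPKM in FT_1 but 3.5 in FT_2 and 3.33 in FT_3, and at 5.65, 6.12 and 5.38 FPKM in the WT libraries. The order was that of IL6 with smaller steps, as FT_1 was 4.31-fold above FT_2. For NFKBIA the log2 fold change was 0.50 (SE 0.603) with all libraries and -0.57 (SE 0.117) without FT_1. With limma on log2(FPKM + 1) it was 0.02.

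**Figure D4:**
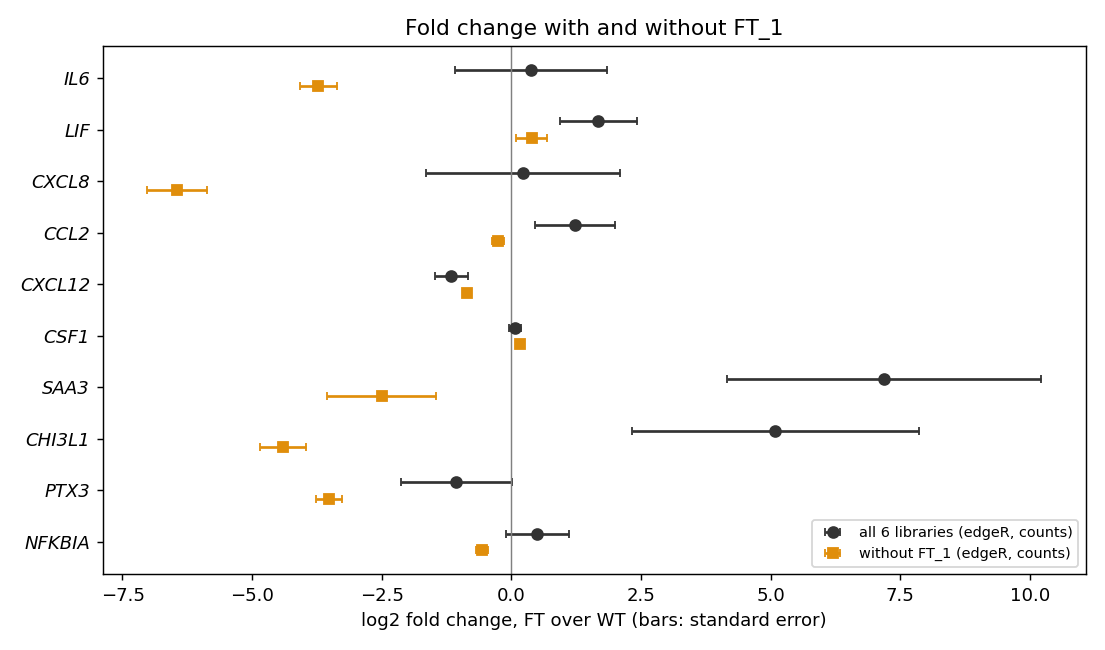
log2 fold change of FT over WT for the 10 genes with all 6 libraries (black circles) and without FT_1 (orange squares), with bars of 1 SE. For 6 genes the value changes from above 0 to below 0, the farthest being SAA3 (7.19 to -2.50) and CHI3L1 (5.09 to -4.41), while CXCL12 (-1.16 to -0.86) and CSF1 (0.07 to 0.16) move least.

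The order of the 10 genes by level per length also differed between libraries. In FT_1 the highest were CHI3L1, SAA3 and CCL2, ahead of CSF1. In the other 5 libraries CSF1 was the highest of the 10. CXCL12 came next in the WT libraries (48.6 to 55.3 FPKM), ahead of CCL2 (31.0 to 41.5 FPKM). In FT_2 and FT_3, CCL2 (27.9 and 25.8 FPKM) and CXCL12 (26.85 and 24.0 FPKM) were close to each other, with a gap smaller than the difference between the libraries. In both of these libraries IL6, LIF, CXCL8, SAA3, CHI3L1 and PTX3 were each below 1 FPKM.

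The 10 genes also shared annotations, which follow in part from their choice by role. In the KEGG terms of the table, 6 of the 10 were in cytokine-cytokine receptor interaction, which holds 182 genes (1.03% of the table), and 5 were in TNF signaling, which holds 106 (0.6%). The IL-17 signaling term held 4 of them, CCL2, CXCL8, IL6 and NFKBIA, which in FPKM all had FT_1 above and FT_2 and FT_3 below WT. On log2 CPM after TMM scaling CCL2 did not have this order. By GO term, 7 of the 10 were assigned to the extracellular space, a term of 674 genes (3.82%). The 10 genes lay on 10 different chromosomes, so no pair of them were neighbours.

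Among other genes, the levels closest in pattern over the 6 libraries were sought for the 3 of the 10 genes with the widest range, among 10356 genes with a mean of at least 1 FPKM. For CHI3L1 they were the nucleotide receptor P2RY2 and the adhesion receptor ADGRG6, with Pearson r of 0.9995 and 0.9993 on log2(FPKM + 1). P2RY2 was at 9.16 FPKM in FT_1 but 0.57 in FT_2 and 0.69 in FT_3, and at 1.46 to 1.92 FPKM in WT. For SAA3 they were CDA and CHN2, both with r of 0.998. For IL6 they were PARD3 and LOXL3, with r of 0.9975 and 0.9973. PARD3 was at 15.5 FPKM in FT_1, 10.8 and 10.4 in FT_2 and FT_3, and 12.6 to 13.7 FPKM in WT. Its range was thus far narrower than that of IL6. The lysyl oxidase LOXL3 was at 25.0 FPKM in FT_1, 6.51 and 6.02 in FT_2 and FT_3, and 12.6 to 14.9 FPKM in WT. With only 6 libraries, these correlations are a description and were not tested.

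The rest of the pathways was taken from lists of 213 companion genes sorted by role, of which 162 were in the table and 126 were tested. Of these 126, 9 were called higher and 9 lower in FT (14.3%, against 15.9% of all genes tested), and their median log2 fold change was 0.25, against 0.03 over all genes. Without FT_1 these medians were -0.0021 and -0.02. Without FT_1, 13 of 127 were called higher and 19 lower (25.2%, against 22.5%), and 7 of the higher and 8 of the lower calls were among those made with all libraries. By list, the share called ran from 0% to 33.3% with all libraries and from 0% to 61.1% without FT_1. FT_1 was over 2-fold above both other FT libraries for 30 of the 126 (23.8%) and over 2-fold below them for 16 (12.7%). Of the 18 genes called with all libraries, 9 kept the call whichever library was left out and 9 lost it at least once. Lower calls numbered 4 without WT_1, 4 without WT_2 and 5 without WT_3. Adjusted p values given next are from edgeR's quasi-likelihood test with Benjamini-Hochberg adjustment over all genes tested. For them n was 3 per group, except where a library was left out of its group. With 3 libraries a side, the smallest p that an exact permutation test can reach is 0.1.

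**Figure D5:**
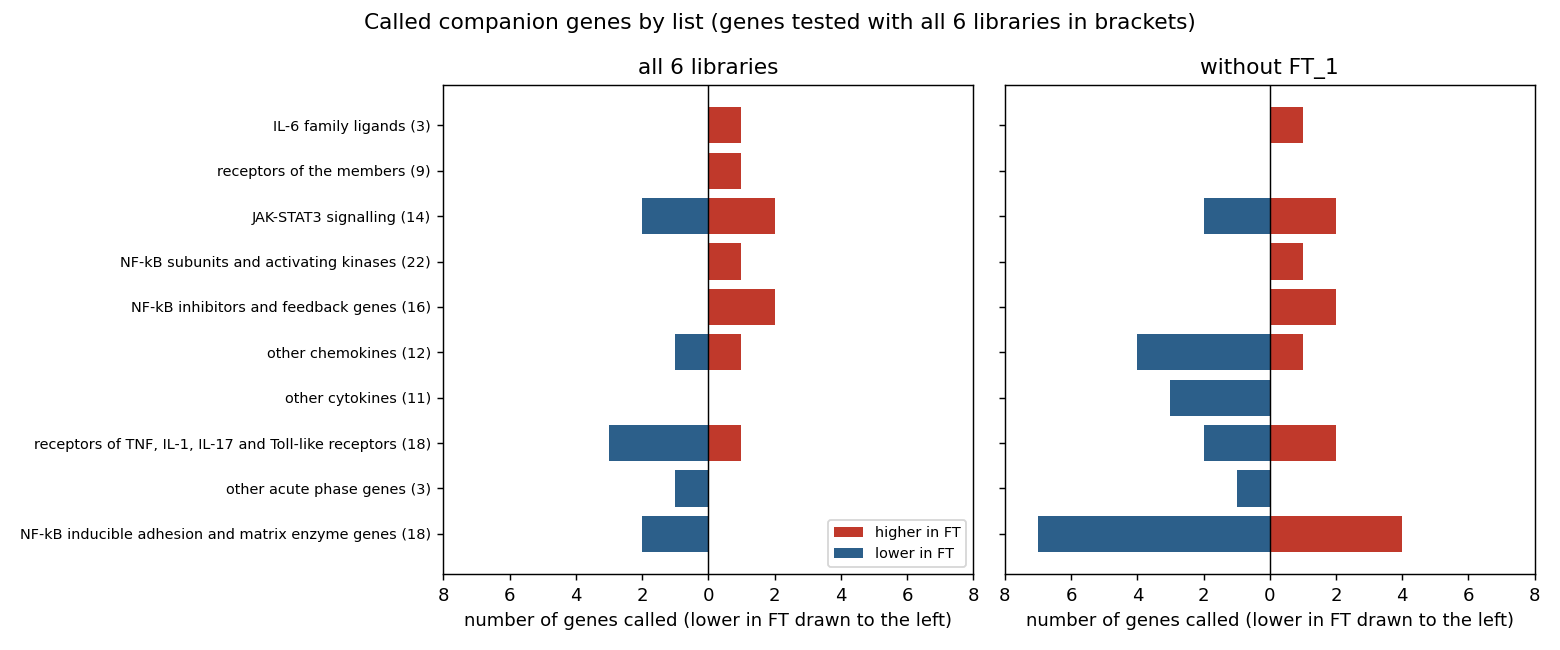
Number of companion genes called higher in FT (red, to the right) and lower in FT (blue, to the left) in each list, with all 6 libraries (left panel) and without FT_1 (right panel). The NF-kB inducible genes go from 0 higher and 2 lower to 4 higher and 7 lower, and the other chemokines from 1 higher and 1 lower to 1 higher and 4 lower.

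Among other ligands of the IL-6 family, 1 of 3 tested was called higher and none lower, with a median log2 fold change of 0.59 (0.35 without FT_1, where the same gene was called). This was CTF1, cardiotrophin-1, at 5.83, 1.35 and 1.32 FPKM in FT_1, FT_2 and FT_3 and at 0.38, 0.05 and 0.17 FPKM in WT. All 3 FT libraries were above all WT libraries. edgeR's quasi-likelihood test gave CTF1 a log2 fold change of 3.92 (SE 0.938, Benjamini-Hochberg adjusted p 0.0204), and 2.84 (adjusted p 0.00131) without FT_1. Leaving out WT_2 or WT_3 ended the call, and the adjusted p then reached 0.0839. It was also not called with limma on log2(FPKM + 1) without a filter, at 1.49. The most abundant ligand, CLCF1, was at 23.3 FPKM in FT_1 and 12.04 to 15.4 FPKM in the other libraries and was not called.

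Of the receptors of the 10 genes, 9 were tested, with 1 called higher, none lower and a median of -0.04 (-0.21 without FT_1). The called gene was SDC1, a heparan sulfate proteoglycan that binds chemokines, at 83.0, 40.5 and 39.7 FPKM in FT and 23.1 to 23.5 FPKM in WT. Its log2 fold change was 1.38 (SE 0.296) with an adjusted p of 0.0142 from edgeR's quasi-likelihood test with Benjamini-Hochberg adjustment. Without FT_1 it was 0.96, under the fold threshold, with an adjusted p of 8.94e-07 from the same edgeR test, and the call was also lost without WT_1, WT_2 or WT_3, at adjusted p up to 0.0619. None of the 9 was called without FT_1, also not at an unadjusted p under 0.05. DESeq2 and limma each called 1 of the list with all libraries. The scavenging receptor ACKR3, which binds CXCL12, was the most abundant and had 427 FPKM in FT_1 against 161 to 217 FPKM elsewhere. IL6ST (gp130) was at 23.9 to 35.1 FPKM in all 6 libraries, so the chain through which IL6 and LIF signal was read in both groups. CSF1R, the receptor of CSF1, was at most 0.19 FPKM in any library.

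In JAK-STAT3 signaling, 2 of 14 genes were called higher and 2 lower, with a median of 0.05, and the same 4 were called without FT_1, with a median of -0.04. For none of the 14 was FT_1 over 2-fold above or below both other FT libraries. PIAS3, an inhibitor of STAT3, was at 20.2 to 27.6 FPKM in FT and 10.4 to 11.5 FPKM in WT, a log2 fold change of 1.33 (SE 0.145, edgeR quasi-likelihood, Benjamini-Hochberg adjusted p 0.00168) and 1.47 without FT_1. SOCS2, a feedback inhibitor of cytokine receptors, was at 2.66 to 4.37 FPKM in FT and 11.5 to 13.5 FPKM in WT, a log2 fold change of -1.62 (SE 0.199, edgeR quasi-likelihood, Benjamini-Hochberg adjusted p 0.00232) and -1.63 without FT_1. CISH, of the same family, had a log2 fold change of 1.29 (SE 0.241, edgeR quasi-likelihood, Benjamini-Hochberg adjusted p 0.00881) and 1.40 without FT_1. With limma on log2(FPKM + 1) CISH was at 0.55 and was not called. SOCS1 was called lower in FT. The log2 fold change of SOCS1 was -1.28 (SE 0.351, edgeR quasi-likelihood, Benjamini-Hochberg adjusted p 0.032) and -1.59 without FT_1. Its call was lost without FT_2, FT_3, WT_1, WT_2 or WT_3, at adjusted p up to 0.11, and with limma on log2(FPKM + 1), at -0.95. The family thus held genes called in both directions.

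Among 22 NF-kB subunits and activating kinases, 1 was called higher and none lower, with a median of 0.20 (0.09 without FT_1). RELB, the subunit of the noncanonical pathway, was at 12.4 FPKM in FT_1 but 6.03 in FT_2 and 6.56 in FT_3 and at 3.81 to 4.27 FPKM in WT. Every FT library was above every WT library. Its log2 fold change was 1.17 (SE 0.284, edgeR quasi-likelihood, Benjamini-Hochberg adjusted p 0.0211). Without FT_1 it was 0.79, under the fold threshold, and the call was also lost without WT_1, WT_2 or WT_3, at adjusted p up to 0.0808, and with limma, at 0.81 on log2(FPKM + 1) and 0.93 on log2(FPKM + 0.1). Without FT_1, 1 other gene, TICAM1, an adaptor of Toll-like receptors, was called higher, at 1.07. TAB2, the most abundant of the list, had a log2 fold change of 0.94 (0.76 without FT_1), under the threshold, and was called without FT_2 (1.005) or FT_3 (1.022).

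The NF-kB inhibitors and feedback genes had a median of 0.70 (0.51 without FT_1), with 2 of 16 called higher, none lower, and the same 2 called without FT_1. These were TNFAIP3, the ubiquitin-editing enzyme A20, and BCL3, a nuclear relative of NFKBIA. TNFAIP3 was at 4.93, 2.33 and 2.36 FPKM in FT and 0.92 to 1.09 FPKM in WT, a log2 fold change of 1.79 (SE 0.321, edgeR quasi-likelihood, Benjamini-Hochberg adjusted p 0.00789). Without FT_1 it was 1.35. With limma on log2(FPKM + 1) it was 0.9993, just under the fold threshold, and TNFAIP3 was not called. BCL3 was at 37.1, 25.8 and 21.6 FPKM in FT and 9.89 to 10.7 FPKM in WT, a log2 fold change of 1.62 (SE 0.196, edgeR quasi-likelihood, Benjamini-Hochberg adjusted p 0.00224) and 1.39 without FT_1. Both were above WT in FT_2 and FT_3 too, where NFKBIA was below it. The most abundant, TNIP1, was at 34.9 to 42.4 FPKM in FT and 30.9 to 34.0 FPKM in WT and did not pass the fold threshold.

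Of the other chemokines, 12 were tested, with 1 called higher, 1 lower and a median of 0.94. FT_1 was over 2-fold above both other FT libraries for 8 of the 12. CCL26, eotaxin-3, which attracts eosinophils, was at 407 FPKM in FT_1 but 26.2 in FT_2 and 22.6 in FT_3 and at 4.37 to 5.73 FPKM in WT. It was above WT in all 3 FT libraries, unlike CXCL8 and CCL2. CCL26 had a log2 fold change of 5.04 (SE 1.32, edgeR quasi-likelihood, Benjamini-Hochberg adjusted p 0.0274) and 2.44 (adjusted p 5.63e-07) without FT_1. The call was lost without WT_1, WT_2 or WT_3, at adjusted p up to 0.108, and DESeq2, which gave CCL26 no adjusted p, called none of these chemokines higher. With limma on log2(FPKM + 1) without a filter CCL26 was at 3.41 and was not called. CCL17, which attracts T cells, had no count in any FT library and 0.46 to 1.01 FPKM in WT. It was at least 9.68-fold lower in FT, set against a floor of 3 counts per library (edgeR quasi-likelihood, Benjamini-Hochberg adjusted p 0.00773, and 0.00133 without FT_1). CCL17 was not called with limma on log2(FPKM + 1) without a filter, at -0.85.

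The neutrophil-attracting chemokines next to CXCL8 on chromosome 6 had its split. They are named here after their values were seen, as are the other genes given below that were called only without FT_1. CXCL5, starting at position 88897012 of that chromosome, was at 224 FPKM in FT_1 but 16.3 in FT_2 and 12.3 in FT_3 and at 29.8 to 33.8 FPKM in WT. CXCL2, CXCL3 and GRO1, which start between 88946402 and 89072611, were likewise above every WT library in FT_1 and below every WT library in FT_2 and FT_3. Without FT_1 the chemokines had 1 higher call, CCL26, and 4 lower calls, CCL17, CCL20, CXCL2 and GRO1, and the median went from 0.94 to -0.77. The call of CCL20 rests on few counts, 20 in WT_1 and 21 in WT_3, with 0 in WT_2 as well as in FT_2 and FT_3. The interferon-inducible CXCL10 and CXCL11, farther along chromosome 6, had 385 and 50 counts in FT_1 and 0 in the other 5 libraries, and did not pass the filter on low counts. Genes with at least 20 counts in 1 library and at most 3 in each other numbered 139 for FT_1 and 0 to 2 for each of the other libraries.

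None of 11 other cytokines was called by edgeR's quasi-likelihood test with all libraries, also not at an unadjusted p under 0.05, with a median of 0.06 (-0.05 without FT_1). DESeq2 called 1 higher and 1 lower, and limma on log2(FPKM + 1) called 1 lower. The most abundant was MIF, at 57.1 to 78.3 FPKM in FT and 50.8 to 56.6 FPKM in WT. Without FT_1, 3 of 12 were called lower by edgeR, namely IL7, IL18 and TNFSF10. IL7, a growth factor of lymphocytes, was at 0.08, 4.12 and 4.18 FPKM in FT and 14.5 to 20.4 FPKM in WT, so all FT libraries were below WT. IL18 was at 22.6 FPKM in FT_1 but 5.82 and 4.94 in FT_2 and FT_3, with 11.5 to 19.5 FPKM in WT.

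The receptors of TNF, interleukin-1, interleukin-17 and microbial products had 1 of 18 called higher, 3 lower and a median of 0.11, also 0.11 without FT_1. TNFRSF21, a death receptor of the TNF family, was at 7.62, 2.08 and 2.44 FPKM in FT and 0.3 to 0.48 FPKM in WT. TNFRSF21 had a log2 fold change of 3.55 (SE 0.581, edgeR quasi-likelihood, Benjamini-Hochberg adjusted p 0.00569) and 2.72 without FT_1. The called genes on the lower side were the interleukin-33 receptor IL1RL1 and the Toll-like receptors TLR4 and TLR2, sensors of bacterial lipopolysaccharide and lipoproteins. IL1RL1 was at 0.97 to 2.59 FPKM in FT and 5.03 to 7.43 FPKM in WT, a log2 fold change of -1.87 (SE 0.403, edgeR quasi-likelihood, Benjamini-Hochberg adjusted p 0.0144) and -2.41 without FT_1, and its call was lost without WT_1 or WT_2, at adjusted p up to 0.0586. TLR4 was at 0.79, 2.44 and 2.42 FPKM in FT and 5.38 to 6.68 FPKM in WT, a log2 fold change of -1.54 (SE 0.438, edgeR quasi-likelihood, Benjamini-Hochberg adjusted p 0.0355) and -1.17 without FT_1. TLR2 was at 3.21, 8.31 and 6.95 FPKM in FT and 13.4 to 15.6 FPKM in WT, a log2 fold change of -1.09 (SE 0.346, edgeR quasi-likelihood, Benjamini-Hochberg adjusted p 0.0497). Both Toll-like receptors were below WT in every FT library, but their calls depended on single libraries. That of TLR4 was lost without any 1 library other than FT_1, at adjusted p up to 0.104, and that of TLR2 without any 1 library other than FT_2, at adjusted p up to 0.137 or, without FT_1, at a log2 fold change of -0.78. The edgeR quasi-likelihood call of TLR2 was also lost with no filter on low counts (Benjamini-Hochberg adjusted p 0.0581) and with a robust prior, added after seeing the data (adjusted p 0.0521). Without FT_1 the list had 2 higher calls, TNFRSF21 and IL17RD, and 2 lower calls, IL1RL1 and TLR4. TNFRSF1A, the main TNF receptor and the most abundant of the list, was at 60.0 to 66.4 FPKM in FT and 47.6 to 51.1 FPKM in WT.

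Of 36 other acute phase genes listed, 15 were in the table and 3 were tested. Their median was 0.29, the value of ITIH4, and -1.29 without FT_1, the value of FGB. ITIH4 itself was at 0.30 without FT_1, so the list as a whole did not turn. Both genes were low, at most 0.09 FPKM for ITIH4 and 0.58 FPKM for FGB. TTR, transthyretin, a carrier of thyroid hormone whose amount falls in inflammation, was called lower and none was called higher. It was at 5.71 FPKM in FT_1 but 22.2 in FT_2 and 19.8 in FT_3 and at 127, 113 and 135 FPKM in WT. TTR had a log2 fold change of -2.81 (SE 0.512, edgeR quasi-likelihood, Benjamini-Hochberg adjusted p 0.00831), and -2.41 without FT_1. LCN2, lipocalin 2, had 99 counts in FT_1 and 0 in the other 5 libraries, and was not tested. Among the others in the table that did not pass the filter, CP had 177 counts and HP 111 in FT_1, against at most 10 in any other library.

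The list of NF-kB inducible adhesion and matrix enzyme genes had the largest change of all lists in the number of calls between the fits with and without FT_1. It also held genes of other kinds, among them PTGS2, SOD2 and the transcription factors ATF3, CEBPB, CEBPD, EGR1, FOSL1 and IRF1. With all libraries 2 of 18 were called lower and none higher (11.1%, against 15.9% of all genes tested), and the median was 0.57. ATF3, a stress-induced transcription factor, was at 5.25 to 7.09 FPKM in FT and 24.0 to 25.75 FPKM in WT, a log2 fold change of -1.91 (SE 0.127, edgeR quasi-likelihood, Benjamini-Hochberg adjusted p 0.000638) and -2.04 without FT_1. TNFAIP6, a matrix protein that binds hyaluronan, was at 0.72 to 1.9 FPKM in FT and 4.86 to 5.33 FPKM in WT, a log2 fold change of -1.67 (SE 0.383, edgeR quasi-likelihood, Benjamini-Hochberg adjusted p 0.0178) and -1.34 without FT_1. The call of TNFAIP6 was lost without WT_1, WT_2 or WT_3, at adjusted p up to 0.0627. Without FT_1, 4 of the 18 were called higher and 7 lower (61.1%, against 22.5% of all genes tested), and the median was -0.22. The 7 were ATF3, TNFAIP6, FOSL1 and the matrix metalloproteinases MMP1, MMP3, MMP9 and MMP13, and the 4 were CEBPB, EGR1, PTGS2 and TNFAIP2.

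MMP9 and MMP3, which break down matrix proteins, had the split seen for CHI3L1 and IL6. MMP9 was at 46.6 FPKM in FT_1 and 0 in FT_2 and FT_3, and at 0.06 to 0.38 FPKM in WT. MMP3 was at 21.9 FPKM in FT_1 but 1.2 in FT_2 and 0.89 in FT_3, and at 11.7 to 19.5 FPKM in WT. EGR1, an immediate early transcription factor and the most abundant of the list, went the other way, at 19.0 FPKM in FT_1 but 122 in FT_2 and 124 in FT_3, and 56.3 to 68.4 FPKM in WT. Its log2 fold change was 0.72 (SE 0.655) with all libraries and 1.20 (SE 0.0881) without FT_1, where it was called by the same edgeR test with a Benjamini-Hochberg adjusted p of 2.59e-06. Over the 126 companion genes, 20 (15.9%) had FT_1 above every WT library with FT_2 and FT_3 below every WT library in FPKM, against 6.83% of all genes tested, and 17 (13.5%) did on log2 CPM after TMM scaling, against 5.76%. The epithelial marker sum was also highest in FT_1. In FT_2 and FT_3 it was 16.4 and 15.9 FPKM, not below the 8.05 to 14.2 FPKM of WT. The part of these markers was not tested.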

How the data were processed

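RNA of bEFs from 3 FT and 3 WT fetuses was compared. The table the authors deposited held raw counts per gene and FPKM values, which the authors scaled by gene length and library total. Per the paper's methods reads were mapped with HISAT and expression was estimated with StringTie and edgeR. The submitters' processing notes list Bowtie 0.12.2, HISAT2 2.0 and StringTie 1.3.0, and name a mouse build, whereas the gene identifiers are bovine, so the build of the coordinates is not known. Counts were tested here with edgeR 4.0.16 in R 4.3.3 (TMM scaling, filterByExpr by group, quasi-likelihood test, Benjamini-Hochberg adjustment over all 13482 genes tested). The SE is the absolute log2 fold change divided by the square root of F. Levels for the comparison of single libraries were log2 CPM with a prior count of 2. Alternatives were median-ratio size factors, library totals, DESeq2 1.42.0, limma 3.58.1 on log2(FPKM + 1) or log2(FPKM + 0.1) with a mean FPKM of at least 0.5, no filter, an unadjusted p, a replicate block and leaving out each library. The 10 genes and the companion and marker lists were chosen with earlier results of these data known. From each companion list the text names up to 3 called genes per direction by fold change and the most abundant gene, and others where stated. Some genes of the lists are not reported here. Totals of 48167642 to 69777641 counts per library allow a gene at 0 up to 0.043 to 0.0623 CPM (counts per 1000000), from a floor of 3 counts. The scripts were tested on simulated data with the same spread in every library. No simulated library stood apart as FT_1 did.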

Additional observations from a re-analysis of the deposited data

How the results depend on the processing

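Leaving out 1 library gave 728 to 1482 genes called higher and 713 to 1614 called lower, and 6 to 13 companion genes called higher and 4 to 19 lower. Genes called higher numbered 423 with limma on log2(FPKM + 1), 671 with limma on log2(FPKM + 0.1) and 399 with limma on log2(FPKM + 1) without its filter, where 4 companion genes were higher. None of the 18 companion genes called with all libraries changed its direction under any alternative that gave it a value. Over all companion genes named by the rule, outside the left-out libraries 238 values kept the side of the threshold and 19 lost the call, and among left-out libraries 120 kept it, 33 lost it and 3 gained it. List medians were the same with genes at 0 in 1 group set to their bound. A robust prior, chosen after seeing the data, gave 1113 higher and 1011 lower calls. FT and WT libraries with the same number come from different fetuses. Their deviations from the group means correlated at -0.00103, -0.0198 and 0.0184, and not every library correlated best with its own number. The FT deviations mostly reflect how far FT_1 lay from FT_2 and FT_3, so these values cannot decide whether the numbers mark a pairing. With a replicate block 846 genes were higher and 804 lower, and companion genes numbered 8 higher and 5 lower. The block ended the calls of CCL26, CCL17, SOCS1, TLR4 and TLR2 through the adjusted p, with each still past the fold threshold. Log2 fold changes with the block were -2.05 for IL6, -3.90 for CXCL8, -2.31 for CHI3L1 and 1.63 for SAA3. The cause of these shifts was not tested. Depth limits SAA3 and CXCL8 in FT_2 and FT_3, where at most 8 counts were found.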
